A study of Homo sapiens with 18 samples.

Results

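The genes described here are 9 epithelial keratins, *KRT7*, *KRT8*, *KRT10*, *KRT17*, *KRT18*, *KRT19*, *KRT20*, *KRT23* and *KRT80*, in human pancreatic progenitors plated again on LN411 (laminin-411, to which cells adhere weakly) or on fibronectin (FN). The members were taken by symbol from a table that compares LN411 with FN 3, 6 and 24 h later, and they were chosen with the changes of some of them already known. Of the 9 genes, 6 have a row at all 3 times, out of 21944 genes in the table, while *KRT17*, *KRT20* and *KRT80* have none under their symbol or their Ensembl identifier. Progenitors at day 19 of differentiation were lifted with accutase, plated on wells coated with either matrix and collected for polyA RNA sequencing, with 3 samples in each of 6 groups (FN or LN411, each at 3, 6 and 24 h) and 18 samples in all. Every group thus went through the same dissociation and reseeding. The labels give the cell line as HUES4 in one field and as an NGN3-GFP line derived from SA121 in another, both of them human embryonic stem cell lines, while the paper describes the sequenced progenitors as derived from NGN3-GFP cells.

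Keratins are the intermediate filament proteins of epithelial cells. A filament is built from pairs of an acidic type I and a basic type II keratin, so that each gene of one type depends on a partner of the other. *KRT8* (type II) and *KRT18* (type I) form the basic pair of simple, single-layered epithelia, among them the early pancreatic epithelium, and *KRT19* (type I) and *KRT7* (type II) are best known as keratins of ducts. Filaments are anchored to neighbouring cells at desmosomes and to the matrix at hemidesmosomes. *KRT20* and *KRT23* are further type I keratins, the former known from intestinal epithelium, *KRT80* is a type II keratin, and *KRT10* and *KRT17* are type I keratins best known from the upper layers of the epidermis and from skin appendages and injured epithelia.

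The type II genes lie on chromosome 12 of GRCh38 and the type I genes on chromosome 17, except for *KRT18*, which lies beside *KRT8* on chromosome 12. *KRT8* (ENSG00000170421) spans chr12:52897187-52949954 on the minus strand and *KRT18* (ENSG00000111057) spans chr12:52948871-52952906 on the plus strand. The spans overlap by 1084 bases on opposite strands, of which 525 are exonic in both genes. The overlap comes from long *KRT8* transcripts, since the principal *KRT8* transcript starts 43794 bases away from *KRT18*. *KRT19* (ENSG00000171345) lies at chr17:41523617-41528308 on the minus strand. *KRT10* (ENSG00000186395, chr17:40818117-40822614, minus strand) shares 3514 bases with *KRT10-AS1* on the opposite strand, and whether reads were counted by strand is not given in the sources used here.

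What was available for each gene is a mean normalized count over all 18 samples, and for each time the log2 fold change (LN411 over FN) with its standard error (SE) from the fit of the authors. Values of single samples were not analysed here. The spread between replicates therefore enters only through the SE, and the depth of each library is unknown. The paper calls the samples of a group biological replicates, and neither it nor the labels state whether they came from separate differentiations. A 95% interval below is the log2 fold change with its SE under a normal distribution. A gene is called changed when its Benjamini-Hochberg adjusted p-value at that time is under 0.05. Since the keratins were chosen from this same contrast, their values and calls are given as a description, without p-values. In bulk RNA, fewer cells of a type and less RNA per cell cannot be told apart. Every value compares LN411 with FN at the same time, and no group was collected before reseeding. A loss on LN411 and a gain on FN therefore cannot be told apart either.

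The 6 listed keratins covered a wide range of levels. *KRT8* had a mean normalized count of 166737, rank 16 of all 21944 genes. *KRT18* followed with 54802 at rank 83 and *KRT19* with 52818 at rank 86. Together these 3 genes held 0.516% of the mean normalized counts summed over the genes listed at 3 h. *KRT10* had 1956 (rank 5708). *KRT7* had 49.4 (rank 14601) and *KRT23* had 11.9 (rank 18693), so that the duct keratin *KRT7* was present at a very low level.

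Between genes, levels can be compared only per length of transcript. Per kilobase of the principal transcript, the level was 93462 for *KRT8*, 38784 for *KRT18* and 37998 for *KRT19*. The type II partner *KRT8* thus stood 2.41 times above *KRT18*, while *KRT19* and *KRT18* were nearly level by this length, with a ratio of 0.980. With the longest transcript the ratio of *KRT8* to *KRT18* was 2.22 and with the mean length 2.90. By both of these lengths *KRT19* stood above *KRT18*. It had 37998 against 26246 with the longest transcript, and 70937 against 43786 with the mean length. The order of *KRT19* and *KRT18* thus depended on the length used. The longest transcript and the mean length were planned, and the principal transcript was added after the data were seen. On the same scale of the principal transcript, *KRT10* had 913, *KRT7* 30.4 and *KRT23* 5.41. The spread of these levels over samples is not known, so that no neighbours in this order were tested against each other. The levels pool both matrices and all times, and their ratios need not hold for either matrix alone. At 24 h, for example, the ratio of *KRT18* to *KRT8* on LN411 was 0.762 of that on FN.

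**Figure D1:**
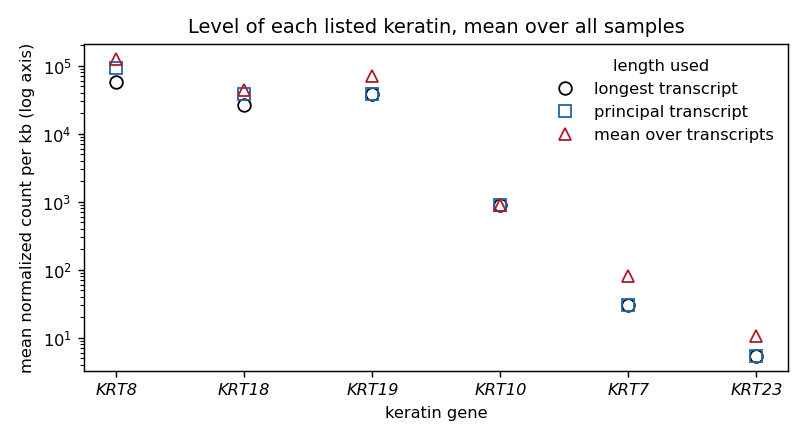
Mean normalized count per kilobase over all 18 samples (log axis) for the 6 listed keratins, with 3 choices of transcript length and no error because values of single samples were not analysed here. *KRT8*, *KRT18* and *KRT19* sit between 26246 and 126904, *KRT10* lies near 913, and *KRT7* and *KRT23* lie below 100.

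On LN411 the *KRT8* and *KRT18* pair had a lower level than on FN, by a gap that grew with time. At 3 h *KRT18* had a log2 fold change of −0.13 (SE 0.027, 95% interval −0.19 to −0.081). By 6 h it had reached −0.43 (−0.49 to −0.38), and by 24 h it stood at −1.77 (−1.83 to −1.72). In percent, *KRT18* was 8.90% lower on LN411 than on FN at 3 h and 25.8% lower at 6 h, and the gap reached 70.7% by 24 h. *KRT18* was below its FN level at every time, with intervals that do not touch each other.

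*KRT8*, the type II partner, followed the same course with smaller values. Its log2 fold change at 3 h was −0.056 (SE 0.027, −0.11 to −0.0032). At 6 h *KRT8* stood at −0.27 (−0.33 to −0.22), and by 24 h at −1.38 (−1.43 to −1.33). These are levels 3.83%, 17.2% and 61.5% below those on FN. The partners therefore did not move by equal amounts. The log2 fold change of *KRT18* minus that of *KRT8* was −0.078 at 3 h and −0.16 at 6 h. By 24 h it was −0.39, which puts the ratio of *KRT18* to *KRT8* on LN411 at 0.762 of that on FN. Both genes were measured in the same libraries, and no error could be given for this difference.

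*KRT19*, the other abundant type I keratin, behaved differently at the early times. Its log2 fold change was 0.059 (SE 0.033, −0.0054 to 0.12) at 3 h and 0.11 (0.043 to 0.17) at 6 h, a level 7.64% above that on FN at 6 h. At 24 h it was −0.39 (−0.46 to −0.33), a level 23.8% below FN. *KRT19* thus lay slightly above FN at 6 h and below it at 24 h. At 24 h its log2 fold change was 1.38 above that of *KRT18* and 0.99 above that of *KRT8*, so that relative to the *KRT8* and *KRT18* pair the share of *KRT19* was higher on LN411.

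*KRT10* stayed close to its FN level, with log2 fold changes of 0.052, 0.080 and 0.093 in the order of the times. Its interval at 24 h ran from −0.017 to 0.20 and includes 0, as at the earlier times. The antisense gene *KRT10-AS1* had log2 fold changes of 0.0091, 0.13 and 0.11 in the same order. *KRT7* had point estimates above 0 at all times, 0.42, 0.26 and 0.21, with intervals that include 0, the one at 24 h running from −0.33 to 0.75. For *KRT23* the estimate at 24 h was 0.0086 with an interval from −1.20 to 1.22. At the counts of *KRT7* and *KRT23*, a change of the size of *KRT19* in either direction lies within the 24 h interval of *KRT23*, and one upwards within that of *KRT7*.

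**Figure D2:**
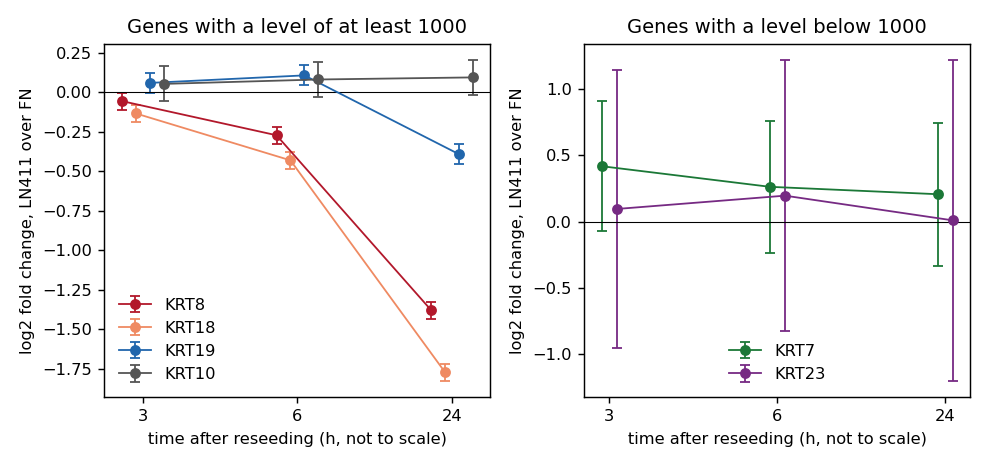
Log2 fold change (LN411 over FN) by time for the 6 listed keratins, with bars for the 95% interval and lines that only join the estimates of separate libraries (time axis not to scale, different vertical ranges in both panels). *KRT18* and *KRT8* move down to −1.77 and −1.38, *KRT19* is at 0.11 at 6 h and −0.39 at 24 h, and the other 3 genes have intervals that include 0.

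In calls, 1 of the 5 tested keratins was changed at 3 h (*KRT18*, lower), against 0.383% of all genes tested at that time and 0.200% called lower. At 6 h the calls were 3 of 4, with *KRT18* and *KRT8* lower and *KRT19* higher, where 8.23% of all genes were called, 3.33% lower and 4.90% higher. At 24 h they were 3 of 6, *KRT18*, *KRT8* and *KRT19* and all of them lower, where 29.5% of all genes were called and 12.8% were called lower. Nothing is read from these shares, since the members were chosen from this contrast. *KRT23* had no adjusted p-value at 3 and 6 h and *KRT7* none at 6 h, because the authors' filter on low counts removed genes below 17.1 at 3 h and below 108.3 at 6 h. The calls of *KRT18* at 3 h and of *KRT19* at 6 h did not hold with a t distribution in place of the normal distribution, and the *KRT19* call was also lost with an adjusted p-value under 0.01, on recentring and on removal of GC content and length trends.

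Among the 7968 genes whose mean normalized count reached 1000, *KRT18* had the 141st lowest log2 fold change at 3 h, the 24th lowest at 6 h and the 10th lowest at 24 h. *KRT8* moved from rank 812 to 102 and 28 in the same order. Both genes thus moved towards the lower end of the distribution with time, while *KRT19* was at rank 378 at 24 h. By the absolute ratio of log2 fold change to SE, *KRT18* ranked 1 and *KRT8* ranked 2 at 24 h, and this ratio also rises with the level of a gene.

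**Figure D3:**
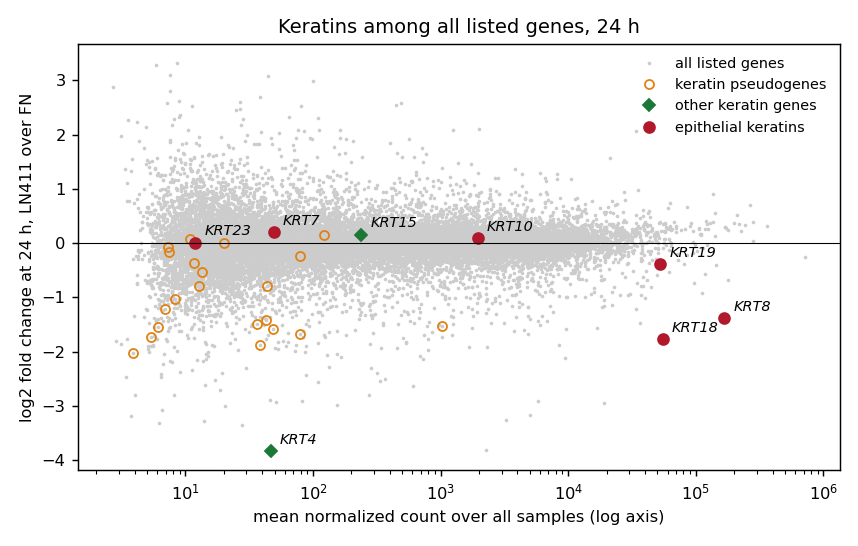
Log2 fold change at 24 h (LN411 over FN) against the mean normalized count over all samples (log axis) for all 19569 genes listed at this time, with the epithelial keratins, other keratin genes and keratin pseudogenes marked. *KRT18* and *KRT8* rank 10 and 28 from the lowest among genes whose count reached 1000, *KRT10*, *KRT7* and *KRT23* lie near 0, and *KRT4* lies at −3.83.

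The change of the LN411 effect with time was compared by the difference of log2 fold changes and its SE. For *KRT18* the difference was −0.30 (SE 0.039) from 3 to 6 h, −1.34 (SE 0.039) from 6 to 24 h and −1.64 over the whole interval. The differences of *KRT8* were −0.22 (SE 0.038), −1.11 (SE 0.038) and −1.32. For *KRT19* the difference from 3 to 6 h was 0.048 (SE 0.046), and that from 6 to 24 h was −0.50 (SE 0.046). Most of the change in all 3 genes thus fell between 6 and 24 h. This span of time is longer than that from 3 to 6 h, and the change per hour was not compared. The interval of the *KRT19* difference from 3 to 6 h, −0.042 to 0.14, includes 0. From 3 to 6 h 2 members were called different, both more negative, against 0.257% of all genes in either direction and 0.146% more negative. With a t distribution in place of the normal distribution, 0 members were called from 3 to 6 h. From 6 to 24 h 3 members were called more negative, against 12.8% of all genes in either direction and 6.51% more negative. From 3 to 24 h it was again 3, against 17.0% and 8.18%. For *KRT10*, *KRT7* and *KRT23* no difference was called, and the interval of *KRT10* from 3 to 24 h was −0.12 to 0.20.

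*KRT8* and *KRT18* have many processed pseudogenes, copies of the spliced transcript inserted elsewhere in the genome, and the values of these bear on how far the gene counts are their own. The table lists 13 pseudogenes of *KRT8*, which are 86.1 to 97.1% identical to its transcript, and their summed count is 0.891% of that of *KRT8*. For *KRT18* there are 12, with identities of 86.7 to 95.2% and a sum of 0.310% of the parent. A run of 75 bases without a difference to the parent, over which a read could not be told apart, occurs in 6 pseudogenes of *KRT8* and in 6 of *KRT18*. The length of the reads is not known here, and 75 was chosen as an example. The authors counted reads with the gene count option of STAR. How reads that match several places entered the counts was not examined here, so that the shared runs do not show reads counted for the wrong gene.

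At 24 h, 11 pseudogenes of *KRT8* are listed, of which 10 had a log2 fold change below 0 and 5 were called lower, against 12.8% of all genes called lower. Their 95% intervals held the value of *KRT8* itself, −1.38, in 7 of 11, some of them only because they are wide. Those of *KRT8P39* (−1.62 to 0.56) and *KRT8P9* (−2.28 to 0.20) include 0 as well. *KRT8P10* and *KRT8P14* had mean normalized counts of only 6.10 and 3.85. *KRT8P36*, the most abundant with a mean normalized count of 1017, had −0.027 at 3 h, −0.38 at 6 h and −1.53 (−1.66 to −1.40) at 24 h. This course was close to that of *KRT8*. No run of 75 bases is shared between them, and shorter runs or reads with mismatches were not examined. The narrow 24 h interval of *KRT8P36* still lies below the value of *KRT8* and does not hold it. *KRT8P12*, the next most abundant with 122 and the least identical of those listed, had 0.14 (−0.18 to 0.47) at 24 h and did not move with *KRT8*. Of the 9 *KRT18* pseudogenes listed at 24 h, 8 were below 0 and 2 were called lower, against the same 12.8%, *KRT18P28* at −1.88 (−2.46 to −1.31) and *KRT18P17* at −1.48 (−2.29 to −0.67). *KRT19P1*, the pseudogene of *KRT19*, had −0.16 (−1.33 to 1.01). The median over all 21 keratin pseudogenes at 24 h was −1.04, where the median of all genes was 0.012. Their part in the values of the parent genes was not tested beyond these counts.

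**Figure D4:**
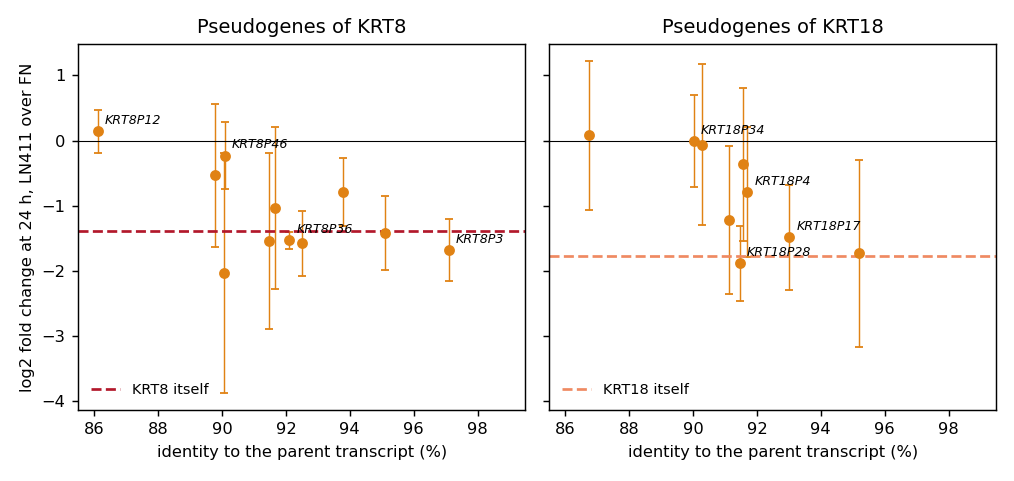
Log2 fold change at 24 h (LN411 over FN) of the pseudogenes of *KRT8* (left) and *KRT18* (right) against their identity to the parent transcript in percent, with bars for the 95% interval and a dashed line at the value of the parent. *KRT8P36* sits at −1.53, below the line of *KRT8* at −1.38, and *KRT8P12* at 86.1% identity sits at 0.14.

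Outside the 9 members, the table holds only 4 further keratin genes. *KRT4*, a type II keratin of stratified mucosa, had a mean normalized count of 46.8 and log2 fold changes of −0.34 at 3 h and 0.044 at 6 h, followed by −3.83 (SE 0.38) at 24 h. This was the lowest log2 fold change of all 19569 genes listed at 24 h, a level 0.0704 times that on FN, and it was reached only between 6 and 24 h. *KRT15*, a type I keratin of basal cells, had 0.16 (SE 0.14) at 24 h and was not called. *KRT13* (mean normalized count 23.9) and *KRT78* (8.22) have no row at 24 h. The basal and squamous markers *TP63*, *KRT5*, *KRT14*, *IVL*, *SPRR1A*, *SPRR1B* and *LORICRIN* have no row at any time.

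The genes that anchor and crosslink keratin filaments had estimates nearer to 0 at 24 h than those of *KRT8* and *KRT18*. Of 13 desmosome genes, 9 are listed at 24 h, of which 7 were lower, none was higher and the median was −0.18, where 12.8% of all genes were called lower and 16.7% higher. *PKP2*, the plakophilin of simple epithelia, was at 0.520 times its FN level (log2 fold change −0.94, SE 0.045), *PKP4* at 0.753 and *JUP*, which encodes plakoglobin, at 0.885. *DSP* encodes desmoplakin, the protein that binds the keratin filament at the desmosome, and had −0.047 (SE 0.039) without a call. At 6 h only *PKP2* and *PKP4* were called lower, of 8 tested, against 3.33% of all genes. At 3 h no gene of the list was called, against 0.383% of all genes.

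Among 10 linker and hemidesmosome genes, 9 are listed at 24 h, with 4 lower, 1 higher and a median of −0.16, beside the same 12.8% lower and 16.7% higher over all genes. *MACF1*, a large cytoskeletal crosslinker, was at 0.783 times its FN level, *ITGB4*, the hemidesmosomal integrin subunit, at 0.777 and *PPL*, which encodes periplakin, at 0.861. *COL17A1*, the transmembrane collagen of hemidesmosomes, was at 1.82 times its FN level, with a low mean normalized count of 77.5. *PLEC*, which encodes the filament linker plectin, had −0.16 (SE 0.078) and was not called.

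Of 11 other intermediate filament genes 9 are listed at 24 h, of which 6 were lower and none higher, with a median of −0.53. Over all genes 12.8% were called lower at this time. *NES*, which encodes nestin, was at 0.487 times its FN level, *INA*, a neuronal filament gene, at 0.531 and *VIM*, which encodes vimentin, at 0.533. At 6 h 7 genes of this list were tested and none was called, against 8.23% of all genes, while *KRT8* and *KRT18* were called lower. The SEs at 6 h were 0.066 for *VIM*, 0.13 for *INA* and 0.14 for *NES*, where that of *KRT8* was 0.027. This is a comparison of calls and not a test of the difference, and no order in time is read from it.

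**Figure D5:**
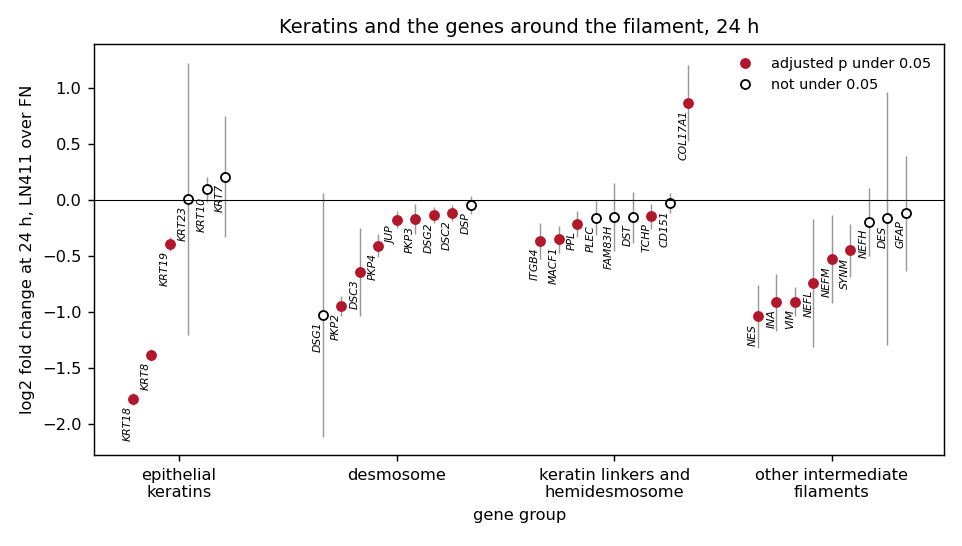
Log2 fold change at 24 h (LN411 over FN) of every listed gene in 4 groups, with bars for the 95% interval, filled points for an adjusted p-value under 0.05 and open points for the rest. *KRT18* and *KRT8* lie lowest, *PKP2* leads the called desmosome genes at −0.94, *COL17A1* is the 1 called gene above 0, and *NES*, *INA* and *VIM* lie between −1.04 and −0.91.

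Markers of cell types were examined beside the keratins. All 9 pancreatic progenitor markers have a row, with *GP2* at a mean normalized count of 135959 and *PTF1A* at only 12.5. At 24 h 2 of them were higher and none lower, where 16.7% of all genes were called higher and 12.8% lower. *PDX1*, the pancreatic master regulator, was at 1.51 times and *GP2*, a surface glycoprotein of progenitors, at 1.87 times the FN level. The log2 fold changes of 5 others were −0.15 for *NKX6-1*, 0.052 for *SOX9*, 0.077 for *FOXA2*, 0.012 for *ONECUT1* and 1.35 (SE 0.57) for *PTF1A*, none of them called.

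Of 10 endocrine markers, 7 were higher at 24 h and none lower, with a median log2 fold change of 1.29, where 16.7% of all genes were called higher. *NEUROG3*, the switch to the endocrine lineage, was at 5.82 times, *NKX2-2* at 4.96 times and *INSM1* at 3.78 times the FN level. At 6 h 5 of these markers were tested and *NKX2-2* alone was called, against 8.23% of all genes. This call was lost with a t distribution and with an adjusted p-value under 0.01. The paper describes the rise of *NKX2-2* as significant only after 24 h. At 3 h none of 8 tested was called, against 0.383% of all genes. The SE of *NEUROG3* at 3 h was 0.19, larger than the change of *KRT18* at that time, and no order in time is read from these calls. The calls in the lists that follow stand beside 16.7% of all genes called higher and 12.8% called lower at 24 h. Duct markers went both ways at that time, among 7 listed. *SPP1* was at 0.392 and *CA2* at 0.647 times the FN level, and *MUC1* at 1.53 and *ANXA4* at 1.26 times. Of 4 listed acinar markers *CELA3A* (1.67 times) and *CPA1* (1.50 times) were higher. Of 5 listed intestinal markers, *CDX2* (1.88 times), *CDH17* (1.54 times) and *ISX* (1.49 times) were higher and *VIL1* (0.849 times) was lower. Of 7 listed mesenchymal markers *PDGFRA* (1.41 times) was higher and *PDGFRB* (0.633 times) lower, and neither of the 2 endothelial markers listed at 24 h was called. The part of any change in cell types in the keratin values was not tested.

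For the 4 keratins whose mean normalized count reached 1000, the genes of that level whose log2 fold changes at the 3 times lay nearest were found by Euclidean distance among 7968 genes. Nearest to *KRT8* were *KIRREL1* at a distance of 0.083, *CALD1* at 0.11 and *DCDC2* at 0.11. *KIRREL1*, for example, had −0.089, −0.31 and −1.44 from the earliest to the latest time. *KRT18* had no neighbour as close, with *BICC1* at 0.18, *ENC1* at 0.22 and *GPRC5A* at 0.22. The nearest gene of *KRT18* was thus not *KRT8*. *KRT19* was most like *CRABP2* at 0.042, *CSRNP1* at 0.050 and *TPM2* at 0.055, and *CRABP2* had 0.024, 0.095 and −0.37. *KRT10*, close to 0 at all times, was most like *FUCA2*, *POLL* and *GADD45GIP1*, all at distances of at most 0.0094.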

How the data were processed

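RNA of 18 samples was sequenced, and per the labels and the paper the reads, split by sample in bcl2fastq, were aligned by the authors to GRCh38 (hg38) using STAR 2.7.2d. The authors then counted reads per gene on GENCODE 32 and ran DESeq2 1.34.0 on LN411 against FN for every time. The model formula and the strand setting of the counting are not given in the sources used here. The deposited table is a result of this comparison, and its columns of fold changes are used here because the table gives no other values of the keratins. In it, the authors' mean normalized count is a signal, the average of size-factor scaled counts over the 18 samples. The authors gave fold change and SE as log2 values. The deposited Wald statistic is a score made from both. The p-value and adjusted p-value are the authors' values, and they served here only to show which genes had been tested.

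The two-sided p-values were recomputed from the log2 fold change and SE with the normal distribution and adjusted by Benjamini-Hochberg over the genes with a deposited adjusted p-value at that time, which gave no call at 0.05 that differed from the deposited one. Differences between times were divided by the root of the summed squared SEs and adjusted over genes listed at both times, which leaves out any batch that the times share. The members and gene lists were chosen with earlier results of these data known. The genes named are the members, up to 3 called genes with the smallest p-values at 24 h per list and direction, the most abundant pseudogenes of each parent, the 3 genes nearest in pattern and the progenitor markers. Other genes of the lists that are named with values, among them *DSP*, *PLEC*, *KRT13*, *KRT15* and *KRT78*, were chosen after their values were seen. Some results for single genes and sequences are not reported here. Positions, lengths and sequences are from GENCODE 44 on GRCh38, and the principal transcript is MANE Select. Pseudogenes were aligned with blastn 2.17.0. The work ran in Python 3.11.15 (scipy 1.17.1, pandas 2.3.3, numpy 2.4.6), and the calls and differences were tested on simulated data. The median SE of genes with a count of at least 1000 was 0.051 at each time. Alternatives were a t distribution with 12 degrees of freedom, no independent filtering, an adjusted p-value under 0.01, recentring, removal of trends with GC content and length, and other transcript lengths.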

Additional observations from a re-analysis of the deposited data

Results flagged for a closer look

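The effect of LN411 differed between times for 3 keratins by a comparison of the log2 fold changes themselves, adjusted over all genes. For *KRT18* the log2 fold change differed by −0.30 from 3 to 6 h, by −1.34 from 6 to 24 h and by −1.64 from 3 to 24 h. For *KRT8* these differences were −0.22, −1.11 and −1.32. For *KRT19* they were −0.50 from 6 to 24 h and −0.45 from 3 to 24 h. The differences of *KRT18* and *KRT8* from 3 to 6 h were not called with a t distribution. The genes were chosen from this contrast, so that these values are a description.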

How the results depend on the processing

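No paired analysis was possible because the table holds no values per sample, and for the same reason the fits without single samples were not run. With a t distribution, 0 keratins were called at 3 h and 0 differed between 3 and 6 h, in place of 1 and 2, which lost *KRT18* and, in the time difference, also *KRT8*. By the same setting all genes called fell from 67 to 8 at 3 h and from 1065 to 338 at 6 h, and with an adjusted p-value under 0.01 to 43 and 577. The call of *KRT19* at 6 h was lost with the t distribution, under 0.01, on recentring and on removal of GC content and length trends, where its log2 fold change was 0.056. The *KRT8*, *KRT18* and *KRT19* calls at 24 h and those of *KRT8* and *KRT18* at 6 h held under each alternative run. Recentring moved no keratin value by more than 0.025 and the GC content and length trends none by more than 0.080, and no sign of a called value changed. The level of *KRT8* per kilobase depended on the length used, from 58259 with the longest transcript to 126904 with the mean length. The longest *KRT8* transcript retains an intron, and the principal transcript was added as an alternative after the data were seen. The SEs of *KRT7* and *KRT23*, with mean normalized counts of 49.4 and 11.9, were 0.25 to 0.62, and the depth of each library is unknown.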
